A study of Ovis aries with 12 samples.

Results

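The genes described here build the basement membrane, the thin sheet of matrix on which epithelial, vascular and meningeal cells sit, or are the receptors by which cells hold on to matrix. They were taken from the gene table by symbol: integrin alpha and beta chains, laminin alpha, beta and gamma chains, nidogens, FREM genes, perlecan (HSPG2) and agrin (AGRN). The rule found 46 of the 33609 genes in the table, and 44 of them had enough counts to be tested. These 46 were 3 FREM genes, 10 laminin chains, the group of 4 linkers made up of the nidogens, perlecan and agrin, 18 integrin alpha chains, 8 integrin beta chains and 3 genes that carry an integrin name but encode no subunit (ITGB1BP1, ITGB1BP2 and ITGB3BP). The untested pair were ITGAD, with at most 13 counts in a library, and ITGB6, with at most 1. LAMB2 was not analysed here.

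RNA came from the hippocampus of adult Ile-de-France ewes, 6 kept as controls and 6 submitted to chronic stress, whose form the labels do not describe. Each of the 12 ewes gave RNA from dorsal and from ventral hippocampus, and each library was an equal mix of RNA from 2 ewes of 1 condition and 1 region. The labels name the dorsal samples dorsal hippocampus and shorten this to DG, without saying which subfields were dissected. There were 4 groups of 3 libraries: dorsal control, dorsal stress, ventral control and ventral stress. The spread between libraries is therefore a spread between pools and not between single ewes, and the same ewes stand on both sides of every regional comparison.

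A laminin is a trimer of 1 alpha, 1 beta and 1 gamma chain that forms the first network of a basement membrane, and nidogens and perlecan tie that network to collagen IV. FRAS1, FREM1 and FREM2 form a complex at the basement membranes of epithelia, and FREM3 is their relative. FREM3 is also known as a marker of a class of excitatory neurons in the upper layers of human cortex. Integrins are pairs of 1 alpha and 1 beta chain that span the cell membrane: ITGA3, ITGA6 and ITGA7 with ITGB1 bind laminins, ITGA11 with ITGB1 binds fibrillar collagen, and ITGA8 with ITGB1 binds FREM1 and nephronectin. In brain these genes are known from vessels, meninges and the astrocyte endfeet that meet them, and some from neurons and microglia.

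The libraries held 12254743 to 53775720 counts assigned to genes, and the 3 dorsal control libraries were the deeper ones in that region, without overlap with dorsal stress. SLC17A7, which loads glutamate into the vesicles of excitatory neurons, stood at 626 to 1336 CPM in the 12 libraries. PROX1, 1 of 8 markers of dentate granule cells, stood at 1.19 to 37.2 CPM. The 8 markers ranged from TDO2, without a count, to C1QL3 at 52.4 to 307 CPM. Their summed level was 263 to 566 CPM in dorsal and 153 to 530 CPM in ventral libraries. Levels are in CPM, a gene's counts over the library's total put on a common scale by the TMM method, and are given as each library's value or as mean ± SD. Fold changes are log2 values with a standard error from edgeR's quasi-likelihood test, and a gene was called when its p-value, adjusted by Benjamini-Hochberg over all 17806 tested genes, was under 0.05. Libraries of 1 group differed along 1 axis that held 75.28% of the variance within groups, and ventral control libraries 1 and 3 lay far apart on it. Markers of meningeal fibroblasts, which lay down matrix at the brain surface, were higher in ventral than in dorsal libraries, with 7 of 9 called lower in dorsal. Their summed level was 153 to 257 CPM in dorsal and 356 to 665 CPM in ventral libraries. The largest of these marker differences was that of PRG4 (-2.74 ± 0.48, adjusted p = 0.00971), and no library lacked DCN, which ranged from 23.7 to 198 CPM. Markers of the choroid plexus moved the other way, with 3 of 8 called higher in dorsal (TTR, CLIC6 and AQP1) and summed levels of 383 to 2846 CPM in dorsal against 60.2 to 426 CPM in ventral libraries. Subicular markers were called lower in dorsal for 4 of 6 genes (54.4 to 88.7 CPM against 140 to 262 CPM, summed). Excitatory neuron markers were called higher for 2 of 6, CAMK2A and NEUROD2. Over all genes tested 1.44% were called higher in dorsal and 3.07% lower. The part of these tissue differences in the results below was not tested. In RNA from whole tissue, fewer cells of a type and less RNA per cell cannot be told apart.

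FREM3 and FREM1 were the members with the largest regional differences that passed the test, both higher in dorsal hippocampus. FREM3 was at 10.6, 16.8 and 14.2 CPM in dorsal control libraries and at 9.20, 10.5 and 6.86 CPM in dorsal stress libraries. In ventral hippocampus it was at 1.27, 0.992 and 2.07 CPM in control libraries and at 1.86, 1.15 and 0.656 CPM in stress libraries. Every dorsal library was above every ventral one. Over both conditions FREM3 was 8.32-fold higher in dorsal hippocampus (log2 fold change 3.06 ± 0.30, adjusted p = 0.000566, edgeR).

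FREM1, a secreted matrix protein, was at 37.6, 52.2 and 37.6 CPM in dorsal control and at 28.9, 32.0 and 45.8 CPM in dorsal stress libraries. Its ventral levels were 11, 4.27 and 6.61 CPM in control and 9.91, 4.74 and 11.4 CPM in stress libraries. Again no ventral library reached the lowest dorsal one. The difference was 4.87-fold (2.28 ± 0.29, adjusted p = 0.00236, edgeR). FREM2, a transmembrane member of the complex, showed no call (-0.23 ± 0.49). Its libraries ran from 3.23 to 17.1 CPM in dorsal and from 3.29 to 17.8 CPM in ventral hippocampus. Its spread within ventral controls alone was nearly as large as its mean (8.98 ± 7.78 CPM, SD, n = 3).

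FRAS1, the partner of FREM1 and FREM2, is not among the 46, since its row carries a placeholder name and was identified by its gene number in the RefSeq table. It was chosen after its values were seen. FRAS1 was lower in dorsal hippocampus, at 6.40, 7.56 and 6.17 CPM in control and 5.52, 7.10 and 7.19 CPM in stress libraries. Its ventral levels were 18.8, 39.2 and 52.3 CPM in control and 24.6, 30.0 and 47.4 CPM in stress libraries, with no overlap between regions. The log2 fold change was -2.41 ± 0.27 (adjusted p = 0.000965, edgeR). Of the FRAS1 and FREM genes, 2 were thus higher in dorsal hippocampus, 1 was higher in ventral hippocampus and FREM2 passed no test. Over both conditions, FREM1, FREM3 and FRAS1 stayed past the threshold in every alternative run and with each of the 12 libraries left out.

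**Figure D1:**
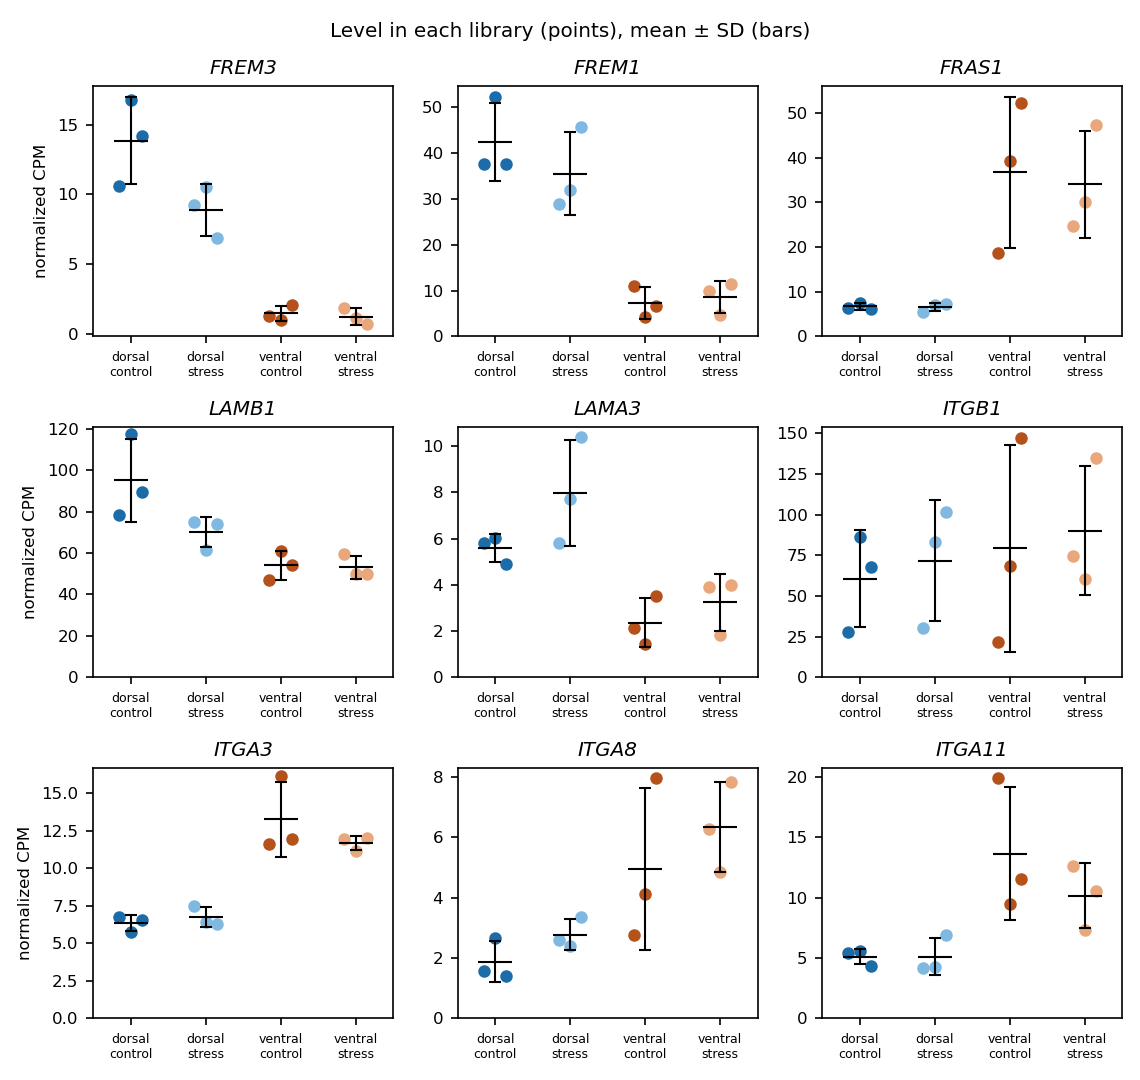
Level of 9 genes in each of the 12 libraries, in normalized CPM on a linear vertical axis, by group; points are libraries, and the black bars are the mean ± SD of 3 libraries. FREM3, FREM1, LAMB1 and LAMA3 have all dorsal points above all ventral points, and FRAS1, ITGA3 and ITGA11 have them all below. The regions overlap for ITGB1 and ITGA8.

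Among the laminin chains 2 of 10 were called, LAMB1 and LAMA3, both higher in dorsal hippocampus, beside 1.44% of all genes. LAMB1, the beta chain of the most widespread laminins, was at 78.5, 117 and 89.3 CPM in dorsal control and at 75.0, 61.6 and 73.8 CPM in dorsal stress libraries. In ventral hippocampus it was at 46.8, 61.0 and 54.1 CPM in control and at 59.3, 49.8 and 50.1 CPM in stress libraries. The lowest dorsal value, 61.6 CPM, lay just above the highest ventral value, 61.0 CPM. The fold change was 1.53 (0.61 ± 0.14, adjusted p = 0.0302, edgeR). Leaving out 1 library ended the call in 8 of 12 cases (highest adjusted p = 0.0892). These were libraries 2 and 3 of dorsal control, all 3 of dorsal stress, library 2 of ventral control and libraries 2 and 3 of ventral stress.

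LAMA3 is the alpha chain of the laminin that anchors epithelia. LAMA3 was at 5.83, 6.03 and 4.89 CPM in dorsal control and at 5.82, 7.70 and 10.4 CPM in dorsal stress libraries. Ventral libraries held 2.14, 1.44 and 3.53 CPM in controls and 3.91, 1.82 and 3.99 CPM under stress. All dorsal values lay above all ventral values, and the fold change was 2.40 (1.26 ± 0.29, adjusted p = 0.0323, edgeR). The call was lost when any library other than dorsal stress 1 or ventral control 3 was left out (highest adjusted p = 0.0893).

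Other laminin chains were not called. LAMB3 showed -0.44 ± 0.43, with ventral control libraries from 5.71 to 31.1 CPM. LAMC3 was at 0.83 ± 0.36 (adjusted p = 0.327), with dorsal libraries from 16.4 to 27.0 CPM and ventral libraries from 3.39 to 20.9 CPM. LAMA1, LAMA4 and LAMA5 pointed to ventral hippocampus, at -0.41 ± 0.14, -0.46 ± 0.16 and -0.61 ± 0.25, with adjusted p-values of 0.162, 0.164 and 0.29 (edgeR). LAMA2, the alpha chain of astrocyte and muscle basement membranes, was at 0.15 ± 0.30, and LAMC1, the common gamma chain, at 0.06 ± 0.18. Thus the 10 laminin chains had 5 positive and 5 negative fold changes.

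None of the 4 linkers was called, and all 4 had negative fold changes. Nidogen NID1 showed the smallest p of them (-0.59 ± 0.28, adjusted p = 0.413), at 10.7 to 23.5 CPM in dorsal and 12.5 to 35.6 CPM in ventral libraries. With the replicate number as a block NID1 was called lower in dorsal hippocampus (-0.58, adjusted p = 0.0372, edgeR). NID2 was at -0.47 ± 0.35 and perlecan at -0.30 ± 0.29. Agrin, which also binds alpha-dystroglycan, was at -0.23 ± 0.16 (adjusted p = 0.698), with 75.2 to 105 CPM in dorsal and 77.0 to 129 CPM in ventral libraries.

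Of 17 tested integrin alpha chains 3 were called, ITGA3, ITGA11 and ITGA8, all lower in dorsal than in ventral hippocampus, beside 3.07% of all genes. ITGA3, a laminin receptor chain, was at 6.73, 5.76 and 6.57 CPM in dorsal control and at 7.51, 6.44 and 6.29 CPM in dorsal stress libraries. Its ventral levels were 11.6, 16.2 and 12.0 CPM in control and 12.0, 11.2 and 12.0 CPM in stress libraries. The regions did not overlap, and the dorsal level was 1.9-fold lower (-0.93 ± 0.15, adjusted p = 0.00562, edgeR). ITGA3 was among the steadiest members, with a standard deviation of 0.16 in log2 CPM within groups, and the call held with each library left out. The other laminin receptor alpha chains were not called: ITGA6 was at -0.17 ± 0.26 and ITGA7 at -0.25 ± 0.12 (adjusted p = 0.418).

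ITGA11, a collagen receptor chain, was at 5.40, 5.58 and 4.38 CPM in dorsal control and at 4.18, 4.26 and 6.86 CPM in dorsal stress libraries. Ventral libraries held 19.9, 9.48 and 11.6 CPM in controls and 12.6, 7.31 and 10.6 CPM under stress. Each ventral value exceeded each dorsal value, and the dorsal level was 2.31-fold lower (-1.21 ± 0.24, adjusted p = 0.0187, edgeR). The call was lost without dorsal control 3 (adjusted p = 0.0588) or dorsal stress 2 (adjusted p = 0.0646).

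ITGA8, whose pairing with ITGB1 binds FREM1, was at 1.58, 2.65 and 1.41 CPM in dorsal control and at 2.59, 2.38 and 3.35 CPM in dorsal stress libraries. Its ventral levels were 2.76, 4.12 and 7.95 CPM in control and 6.27, 4.86 and 7.84 CPM in stress libraries. The regions did not overlap within a condition, but dorsal stress 3 lay above ventral control 1. ITGA8 was 2.45-fold lower in dorsal hippocampus (-1.29 ± 0.30, adjusted p = 0.0343, edgeR), the opposite side from FREM1. Leaving out any library but dorsal control 2 or ventral control 1 ended the call (highest adjusted p = 0.107).

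The other 14 alpha chains were not called. ITGA4 had the largest fold change of them, 0.96 ± 0.91, with values from 0.796 to 6.86 CPM in dorsal and from 0.0790 to 4.62 CPM in ventral libraries. Its error was about as large as its difference. ITGAM and ITGAX, chains of microglia and blood cells that pair with ITGB2, were at -0.23 ± 0.59 and 0.40 ± 0.56, and ITGB2 was at 0.13 ± 0.19. Summed levels of the 8 microglial markers overlapped between regions, at 297 to 447 CPM in dorsal and 313 to 458 CPM in ventral libraries, and none was called.

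No integrin beta chain was called among the 7 tested, and 5 of them had negative fold changes. ITGB1, the partner of ITGA3, ITGA8 and ITGA11, was at 27.7, 86.2 and 67.8 CPM in dorsal control and at 30.4, 83.4 and 101 CPM in dorsal stress libraries. In ventral hippocampus it was at 21.8, 68.5 and 147 CPM in control and at 74.5, 60.7 and 135 CPM in stress libraries. The regions overlapped over most of their range (-0.36 ± 0.48, adjusted p = 0.991, edgeR). The beta chains with the smallest p were ITGB7, a leukocyte chain (-0.41 ± 0.32, adjusted p = 0.796), and ITGB8, which pairs with ITGAV and activates TGF-beta (-0.78 ± 0.80, adjusted p = 0.929). ITGB5, another partner of ITGAV, was at 0.26 ± 0.33. Of the genes that encode no subunit, ITGB1BP1, a protein that binds the tail of ITGB1, was at -0.19 ± 0.12 and ITGB1BP2, known from muscle, at -0.41 ± 0.35, and none was called.

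**Figure D2:**
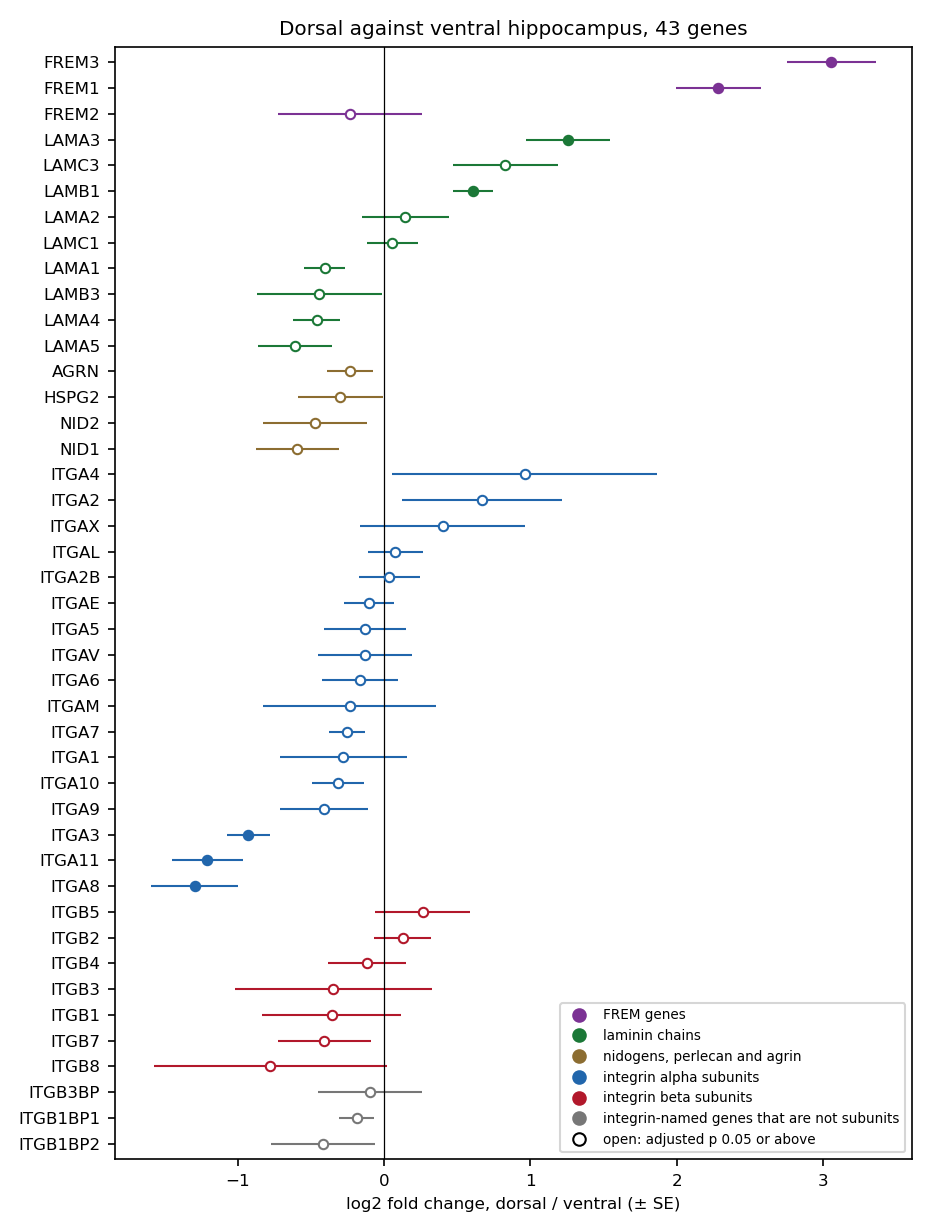
Log2 fold change of dorsal against ventral hippocampus over both conditions for 43 of the 44 tested genes, grouped by class; bars are the standard error, filled points have an adjusted p under 0.05 and open points do not. The 7 filled points are FREM3, FREM1, LAMA3 and LAMB1 to the right of 0 and ITGA3, ITGA11 and ITGA8 to the left.

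In all, 7 of the 44 tested members were called for region over both conditions, 15.9% of them, where 4.51% of all 17806 genes were called. The 4 higher in dorsal stood against 1.44% of all genes called in that direction, and the 3 lower against 3.07%. Members whose libraries did not overlap between regions in either condition also numbered 7, beside 6.37% of all genes, with 4 higher in dorsal (2.7% of all genes) and 3 lower (3.67%). An unadjusted p under 0.05 was found for 12 members and for 2448 genes in all. The median log2 fold change was -0.23 over the members and -0.02 over all genes tested, and 30 of the 44 were negative.

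Each condition taken alone gave fewer calls. In control ewes 3 of 44 members were called, where 1% of all genes were, with 2 higher in dorsal (0.247% of all genes) and 1 lower (0.753%): FREM3 (3.25 ± 0.43, adjusted p = 0.00979), FREM1 (2.54 ± 0.41, adjusted p = 0.0232) and ITGA3 (-1.06 ± 0.21, adjusted p = 0.0432). In stressed ewes only FREM3 was called (2.87 ± 0.43, adjusted p = 0.0234, edgeR), 1 of 44 members where 0.444% of all genes were, or 0.0842% in that direction. There FREM1 was at 2.03 ± 0.41 (adjusted p = 0.0741) and ITGA3 at -0.80 ± 0.21 (adjusted p = 0.151). With the replicate number as a block, FREM1 was also called in stressed ewes (adjusted p = 0.0307), for 2 members in all. The 3 libraries of each region did not overlap for 9 members in control ewes, 4 higher in dorsal (5.44% of all genes) and 5 lower (6.22%). In stressed ewes they did not overlap for 12, 5 higher in dorsal (6.07% of all genes) and 7 lower (7.67%). The calls within a condition rest on few pools. Leaving out dorsal control 2, dorsal control 3 or ventral control 2 left no member called in control ewes, and leaving out any dorsal stress library, ventral stress 2 or ventral stress 3 left none in stressed ewes. In control ewes FREM1 also missed the threshold when library 1 of dorsal control or library 3 of ventral control was dropped (highest adjusted p = 0.111 over the libraries), and ITGA3 without any library but ventral control 1 (highest adjusted p = 0.216).

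FRAS1 was at -2.45 in control ewes (adjusted p = 0.0165) and at -2.37 in stressed ewes (adjusted p = 0.0295), calls that were lost without dorsal control 1, 2 or 3 or ventral control 2 in the first case and without any of 9 libraries in the second (all of both dorsal groups, library 2 of ventral control and libraries 2 and 3 of ventral stress). The control and stressed libraries are separate pools, so the regional difference was measured once in each. Of the 44 members 40 had the same sign in both, 90.9%, where 72.1% of all genes did. ITGA11 and ITGA8 were at -1.42 ± 0.34 and -1.39 ± 0.42 in control ewes and at -1.0 ± 0.34 and -1.19 ± 0.42 in stressed ewes. LAMA3 was at 1.23 ± 0.41 in control and 1.29 ± 0.41 in stressed ewes, and LAMB1 at 0.82 ± 0.19 and 0.40 ± 0.19.

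**Figure D3:**
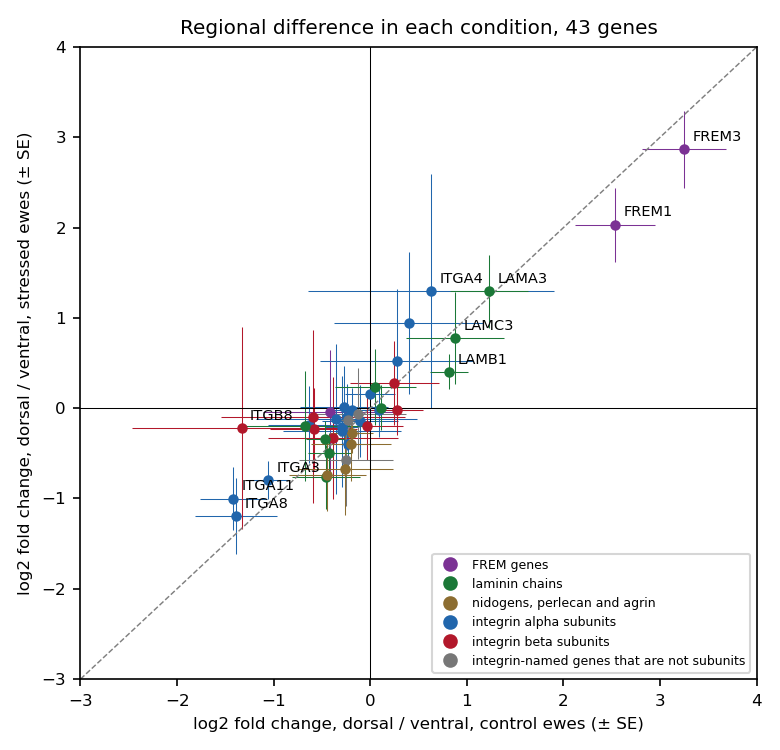
Log2 fold change of dorsal against ventral hippocampus in control ewes (horizontal axis) and in stressed ewes (vertical axis) for 43 of the 44 tested genes; bars are the standard error, colours are the gene classes, and the dashed line marks equal values. FREM3 and FREM1 lie alone at the upper right, ITGA3, ITGA11 and ITGA8 at the lower left, and ITGA4 and ITGB8 have bars that cross or reach 0.

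The second question of the design was how chronic stress changed these genes in each region. In dorsal hippocampus edgeR called 0 of 44 members, where 0% of all genes were called, and the smallest adjusted p among members was 1. LAMB1 was the only member with an unadjusted p under 0.05 (-0.44 ± 0.19, adjusted p = 1, edgeR), a level that 152 of all genes reached. Its dorsal control pools held 78.5 to 117 CPM and its dorsal stress pools 61.6 to 75.0 CPM, without overlap. FREM3 (-0.64 ± 0.39) also had all dorsal stress libraries below all dorsal control libraries. That gap was narrow, between 10.54 CPM in the highest stress library and 10.59 CPM in the lowest control library. Members without overlap numbered 3, all with the stress libraries below. Over all genes 5.13% had no overlap, 2.75% with the stress libraries below and 2.38% above. All dorsal stress libraries were also shallower than all dorsal control libraries, and the part of that in these values was not tested. DESeq2 and limma-voom also called none of the 44, and DESeq2 called 1 gene in all.

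Other named members were not called in dorsal hippocampus either. ITGB8 was at 0.91 ± 1.13, ITGA8 at 0.55 ± 0.42, LAMA3 at 0.51 ± 0.40 and FREM1 at -0.26 ± 0.39. NID1 was at -0.14 ± 0.40 and ITGB1BP2 at -0.33 ± 0.51. The median over members was 0.00 against 0.01 over all genes.

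In ventral hippocampus edgeR again called 0 of 44 members and 0% of all genes. No member and 142 of all genes had an unadjusted p under 0.05, and DESeq2 and limma-voom called no member. ITGB2, the beta chain of leukocytes and microglia, was at 0.41 ± 0.27, LAMA5, an alpha chain of vessel basement membranes, at 0.41 ± 0.35, and NID2 at 0.41 ± 0.50. ITGA11 was at -0.43 ± 0.34, FREM1 at 0.25 ± 0.40 and FREM3 at -0.26 ± 0.41. No member's stress and control libraries were free of overlap here, where 2.86% of all genes were, 1.38% with the stress libraries above and 1.49% below.

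The difference between the stress effects of the regions was tested directly and called no member, with 0% of all genes called and an unadjusted p under 0.05 for 0 members and 46 genes. For FREM3 it was -0.38 ± 0.57 and for FREM1 -0.51 ± 0.56, for LAMB1 -0.41 ± 0.27 and for ITGA3 0.27 ± 0.29.

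**Figure D4:**
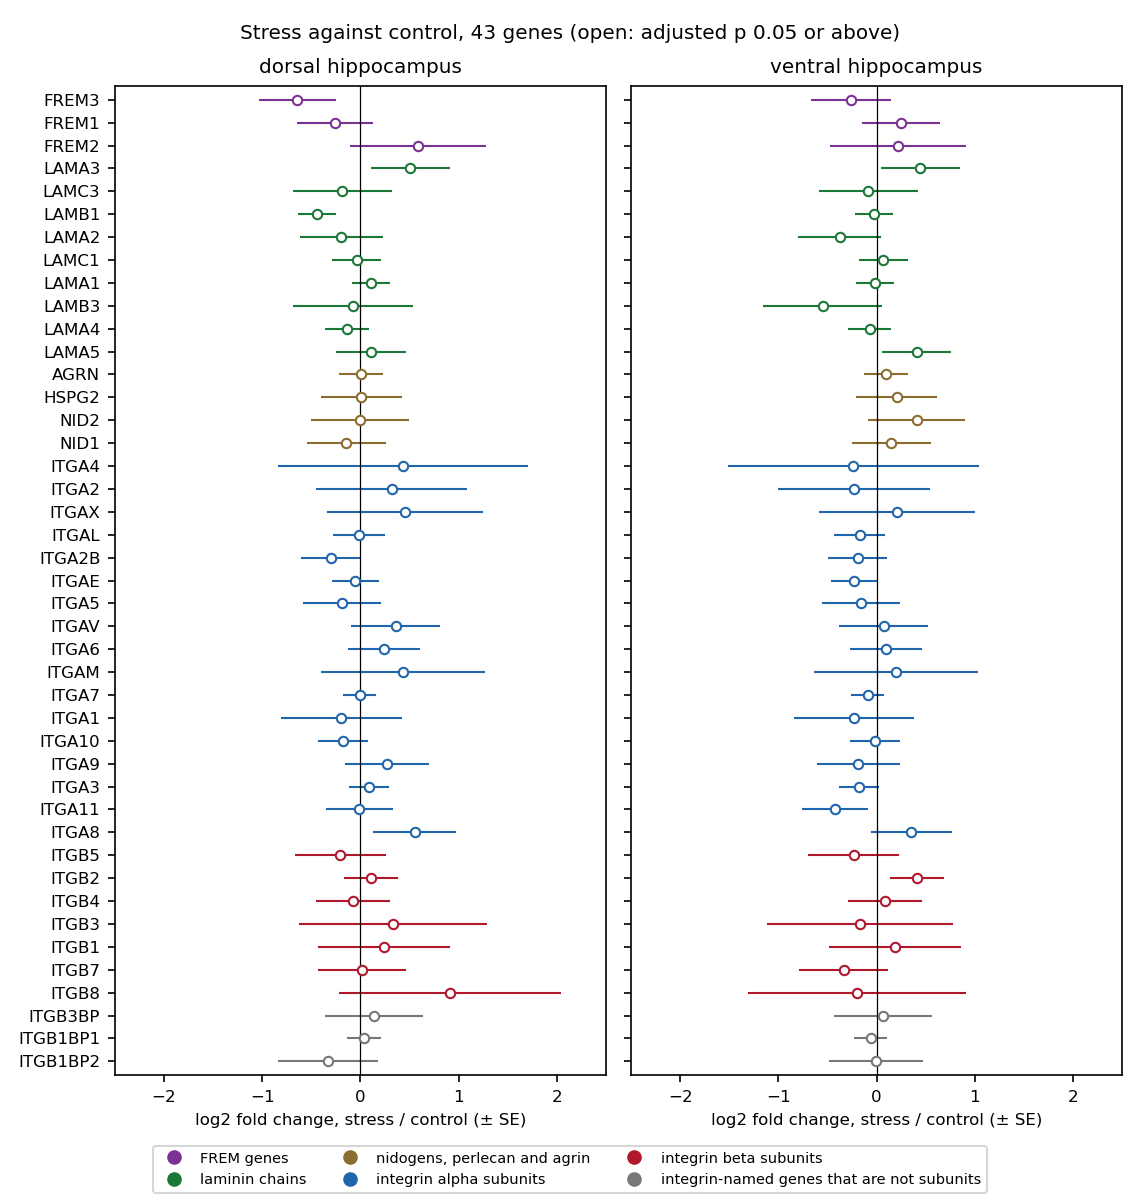
Log2 fold change of stress against control in dorsal (left) and ventral (right) hippocampus for 43 of the 44 tested genes, with genes in the same order in both panels; bars are the standard error and colours the gene classes. All points are open, meaning an adjusted p of 0.05 or above, and the widest bars belong to ITGA4, ITGB8, ITGB3, ITGAM, ITGAX and ITGA2.

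Much of the variation of these genes lay within groups. Deviations from the group means correlated with the axis given above at over 0.7 for 19 of the 44 members and under -0.7 for 13. Of all genes tested, 33.6% and 32.4% did so. The median standard deviation within groups was 0.48 in log2 CPM over the 44 members and 0.42 over all genes tested. ITGB8 was the most variable member (1.43), above 99.1% of tested genes, followed by ITGA4 (1.30), ITGAM (1.16) and ITGB3 (1.09). ITGB1BP1 (0.15), ITGA3 (0.16) and ITGA7 (0.17) were the steadiest.

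The widest gap between pools of 1 group was between ventral control 1 and ventral control 3. There 16 members were more than 2-fold higher in ventral control 3 and 8 more than 2-fold lower, computed on CPM with 0.5 added, which is 54.5% of the 44 where 45.6% of all genes moved that far. ITGB1 was at 21.8 CPM in ventral control 1 and 147 CPM in ventral control 3, and ITGB8 at 1.92 and 20.9 CPM. ITGAV, ITGA1, NID1 and NID2 were among the others that were higher in ventral control 3. LAMC3 went the other way, from 20.9 to 3.39 CPM, as did ITGB5, from 88.5 to 22.4 CPM, with LAMA5, LAMB3, HSPG2, ITGA5, ITGB4 and ITGB7. In dorsal controls 8 members were more than 2-fold higher in library 2 than in library 1, among them ITGB1, ITGB8, ITGB3, ITGA4 and ITGAM, and none was lower, 18.2% of members beside 16.8% of all genes. Library 3 of dorsal stress stood above library 1 by that much for 13 members and below for 1 (31.8%, beside 27.1% of all genes), and library 3 of ventral stress above library 2 for 10 and below for 1 (25%, beside 21.9%). Of the 12 pairs of libraries within a group, 11 had a larger share among members than among all genes. Dorsal stress 2 and 3 had a smaller one (2.27% beside 2.92%). Some shares were close, as for dorsal control 2 and 3 (2.27% beside 1.77%). The pairs share libraries, so they are not separate observations.

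**Figure D5:**
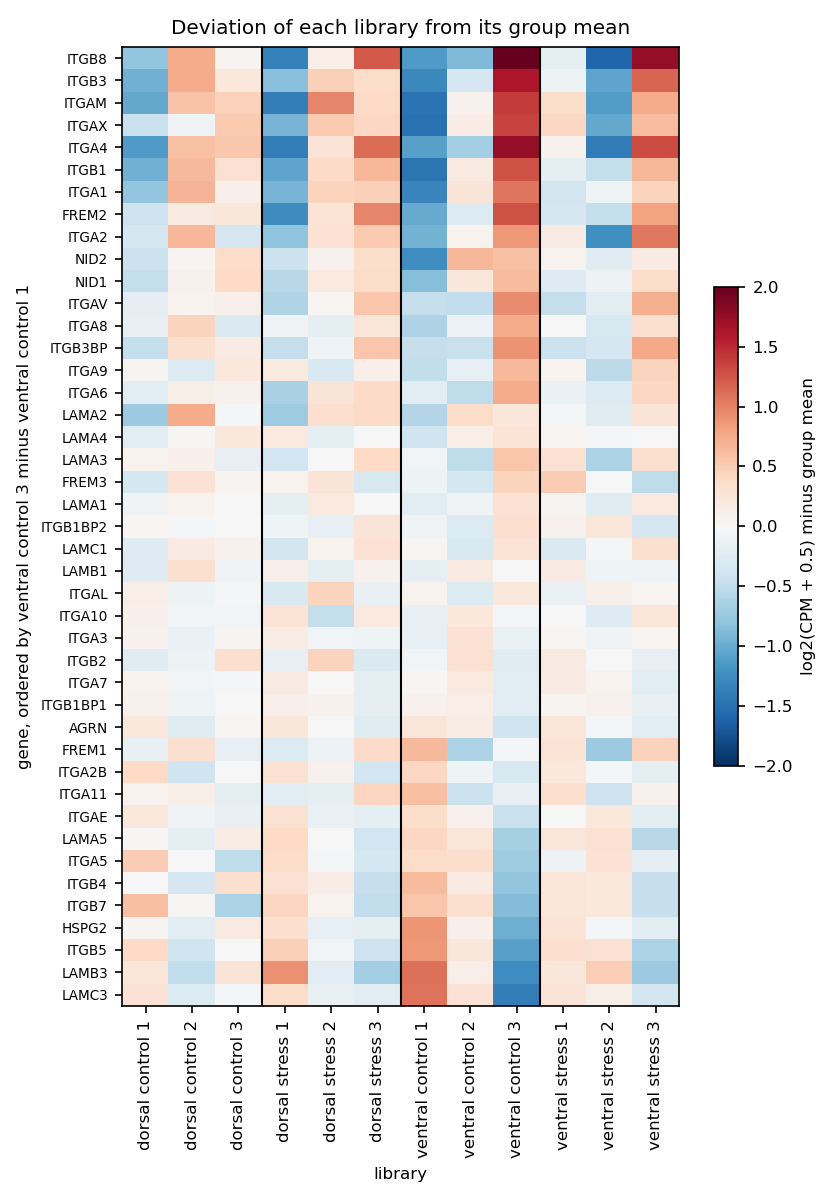
Deviation of each library from the mean of its group, in log2(CPM + 0.5), for 43 of the 44 tested genes (rows) and 12 libraries (columns), with red above and blue below the group mean and colours capped at 2. Rows are ordered by ventral control 3 minus ventral control 1, and ventral control 3 is red at the top, where ITGB8 and ITGB1 stand, and blue at the bottom, where LAMC3 and ITGB5 stand.

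The pathway around these genes was followed in 3 further lists, none with a call for stress in either region. The 21 adaptors and kinases at integrin tails had a median of 0.01 over both conditions. Of these, 3 were called higher in dorsal hippocampus, beside 1.44% of all genes, and none lower. They were PTK2B, a kinase related to focal adhesion kinase (0.67 ± 0.13, adjusted p = 0.0141), paxillin PXN (0.96 ± 0.18, adjusted p = 0.0146) and tensin TNS1 (0.49 ± 0.12, adjusted p = 0.0453). PTK2B was at 444 to 589 CPM in dorsal and at 255 to 399 CPM in ventral libraries. PXN was at 28.8 to 49.3 CPM in dorsal and at 15.4 to 24.4 CPM in ventral libraries. Neither gene had an overlap between regions. PTK2B and PXN are also expressed by neurons. Of 6 excitatory neuron markers 2 were called higher in dorsal libraries, and of 6 subicular markers 4 were called lower. The part of neurons in these values was not tested. TNS1 lost its call when any library but ventral control 1 was left out (highest adjusted p = 0.129), and with no filter, thinning or the block within condition.

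Of the 18 tested integrin ligands outside the 46, 2 were called higher in dorsal hippocampus and 1 lower, with a median of -0.10. Over all genes 1.44% were called higher and 3.07% lower. Osteopontin SPP1, a ligand of ITGAV integrins, was at 370 to 735 CPM in dorsal and 230 to 309 CPM in ventral libraries (0.99 ± 0.17, adjusted p = 0.0091, edgeR). Nephronectin NPNT, which like FREM1 binds the pair of ITGA8 and ITGB1, was at 121 to 167 CPM in dorsal and 79.9 to 103 CPM in ventral libraries (0.55 ± 0.12, adjusted p = 0.0259, edgeR). NPNT lost its call in 7 of the 12 cases of 1 library left out (highest adjusted p = 0.0778), those of libraries 1 and 2 of dorsal control, 2 and 3 of dorsal stress, 2 of ventral control and 1 and 2 of ventral stress. Thrombospondin THBS2 was lower in dorsal hippocampus, at 3.19 to 6.14 CPM against 9.95 to 18.9 CPM (-1.70 ± 0.22, adjusted p = 0.00236, edgeR). THBS2 was also called in control ewes (-1.56 ± 0.31, adjusted p = 0.0443) and in stressed ewes (-1.84 ± 0.31, adjusted p = 0.0376), but neither call was stable. The block within each condition ended both (adjusted p = 0.0632 in control and 0.0545 in stressed ewes), as did no filter (0.059) or thinning (0.062) in control and limma-voom (0.074) in stressed ewes. With libraries left out, the call in control ewes was lost without any library but ventral control 1 (highest adjusted p = 0.205), and in stressed ewes without library 2 of dorsal control or any of the 6 stress libraries (highest adjusted p = 0.231).

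Of 18 other basement membrane genes only fibulin FBLN1 was called, lower in dorsal (-1.13 ± 0.27, adjusted p = 0.0407), with a median of -0.29 over the list. Of all genes tested, 4.51% were called in either direction and 3.07% were called lower in dorsal. FBLN1 stood at 23.9 to 44.7 CPM in dorsal and 42.5 to 108 CPM in ventral libraries, which overlapped, and its call was lost without any library but dorsal stress 1 or ventral control 3 (highest adjusted p = 0.119), and with limma-voom, thinning or the block within condition. Fibroblasts also express THBS2, FBLN1 and ITGA11, and the meningeal fibroblast markers given above were higher in the same ventral libraries. The part of fibroblasts in these values was not tested. Vessel markers did not pass in either direction: 0 of 10 endothelial and 0 of 9 mural genes were called. Their median log2 fold changes were -0.23 and -0.27. Endothelial markers summed to 153 to 198 CPM in dorsal and 161 to 226 CPM in ventral libraries. Mural markers summed to 230 to 303 CPM in dorsal and 271 to 365 CPM in ventral libraries. In stressed ewes the mural sums did not overlap, at 250 to 290 CPM in dorsal and 354 to 363 CPM in ventral libraries.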

How the data were processed

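Libraries were made with a stranded mRNA kit from TriReagent RNA, per the labels' protocols. The authors deposited whole-number read counts per gene, not normalized. Tools named in the submitters' processing notes, without their roles, include the read counter featureCounts 2.0.0. The notes also name TopHat2 2.1.1 and Bowtie2 2.3.5.1, both aligners, besides SAMtools 1.9, FastQC and bcl2fastq 2.20. The sources used here do not give the genome build, annotation, strand setting or treatment of multiply mapped reads, so reads of overlapping or antisense genes and of near-identical copies may be misassigned.

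Of 33609 genes, 9337 had no count and 17806 passed edgeR's filter on low counts (filterByExpr by group). All 12 libraries entered 1 fit with a mean per group (edgeR 4.0.16, TMM, robust quasi-likelihood F test, R 4.3.3), with 6 contrasts, each adjusted by Benjamini-Hochberg over all tested genes. The standard error is the size of the log2 fold change over the square root of F. Alternatives were RLE scaling, no filter, at least 1 CPM in 3 libraries, DESeq2 1.42.0, limma-voom (limma 3.58.1), the replicate number as a block (1 term over all groups, or 1 within each condition), counts thinned to 12254743 per library, and each library left out in turn.

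Members, lists and naming rules were chosen with earlier results of these data known. Text names members called in any comparison, and per class those with the smallest p, with other members added after their values were seen. Of 179 list genes, 173 matched by symbol, 1 through the RefSeq table and 5 not at all, and 168 were tested. Besides FRAS1, the placeholder-named rows of ITGBL1 (-0.36 ± 0.19, adjusted p = 0.472) and LAMB4 (at most 7 counts) also stand outside the 46. Some genes that count among the totals are not reported here by name. The lists whose calls are not given above had no called gene for region among 5 leukocyte, 8 astrocyte and 7 ependymal markers. They had 1 higher of 8 for oligodendrocytes (MOBP), beside 1.44% of all genes. For dentate granule cells 2 of 7 were lower (DSP and PDZD2), beside 3.07% of all genes.

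No 2 libraries of a group agreed within sampling noise (chi-square per degree of freedom 20.2 to 632). The labels do not say whether equal replicate numbers mark the same ewes. Across genes, deviations of same-numbered control and stress libraries from their group means correlated at 0.799, 0.413 and 0.359 in dorsal and 0.36, 0.395 and 0.862 in ventral hippocampus. All of these exceeded 0.1. Control and stressed ewes are different animals, however, and the fit reported held no replicate block, which was run only as an alternative. Control and stress libraries with different numbers correlated at -0.744 to 0.687 in dorsal and at -0.759 to 0.655 in ventral hippocampus. Same-numbered dorsal and ventral libraries correlated at 0.799, -0.203 and 0.437 in control and 0.33, -0.329 and 0.85 in stressed ewes.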

Additional observations from a re-analysis of the deposited data

How the results depend on the processing

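Members called over both conditions numbered 7, and 5 to 10 under the other scalings, filters, tools and blocks, with DESeq2 at 10, limma-voom at 6, the replicate block at 8 and the block within condition at 5. With single libraries left out they numbered 3 (without dorsal control 3 or dorsal stress 2) to 7. In control ewes the 3 calls became 6 with DESeq2 and 0 to 4 with libraries left out. In stressed ewes the 1 call became 5 with DESeq2, 2 with the replicate block and 0 to 2 with libraries left out. No member was called for stress in any alternative, the replicate block included. Of 1453 alternative values for 74 named gene results, 1306 kept their side of the threshold, 132 lost the call and 15 gained it, and the causes were not tested. No called result changed sign, but 35 values of 14 results that were not called did, among them ITGB8 between regions (0.21 without ventral control 3, in place of -0.78). LAMB1 was not called after thinning (adjusted p = 0.0571), ITGA8 with limma-voom (0.0557) or the block within condition (0.0591), nor LAMA3 with that block (0.0514). TNS1 was lost with no filter (0.0888), thinning (0.0586) or the block within condition (0.0531), NPNT with no filter (0.052), and FBLN1 with limma-voom (0.0535), thinning (0.05) or the block within condition (0.0592). FRAS1 in stressed ewes was lost with limma-voom (0.0849), and in control ewes ITGA3 with no filter (0.0835) or the block within condition (0.113). Counts over all genes moved more: 803 became 1558 with DESeq2 and 1375 with the replicate block over both conditions, 178 became 728 and 440 in control ewes, and 79 became 580 and 314 in stressed ewes, or 27 with limma-voom. Counts under 1 CPM, as for ITGA4 in several libraries, are about 12 reads or fewer in the shallowest library. Leaving out a library leaves 2 in its group, which is then assumed to vary like the others.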
